A study of Heliconius melpomene cythera and Heliconius melpomene rosina with 32 samples.

Results

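The 128 most abundant transcripts of the developing wing of the butterfly Heliconius melpomene are described here by stage, wing region, subspecies and sex. They are the rows of the gene count table, 128 of 30720, whose level averaged 1000 CPM or more over all 32 libraries. CPM is the count of a row divided by the total count of its library, times 1000000, and is thus a share of reads. Transcript lengths were not used, so a higher CPM of 1 transcript than of another is not a larger number of molecules. The rule used the levels, and the levels and shares of the library are given as a description without a test. The last transcripts inside the threshold were MSTRG.23900 at 1017 CPM and MSTRG.26049 at 1011 CPM, and the first outside were MSTRG.12204 at 997 CPM and MSTRG.15666 at 992 CPM.

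RNA was sequenced from pupal wings of 16 individuals of captive populations. H. m. cythera of Western Ecuador has iridescent blue wings, and H. m. rosina of Panama is matt black in the same wing regions. The groups were cythera at 70% of pupal development, rosina at 70%, cythera at 50% and rosina at 50%, with 4 individuals each. Each individual gave 2 libraries, the forewing with the posterior hindwing, and the anterior hindwing, which carries another type of scale. Each group held 2 females and 2 males by its labels, except that all 4 rosina at 70% were males. Stage was compared between different animals, because an animal can be dissected only once.

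In the pupal wing of a butterfly, a thin epidermis gives rise to scale cells, which grow out, lay down the cuticle of the scale and take up pigment. Cells that secrete cuticle can devote much of their messenger RNA to a few structural proteins, and in insects these messages come and go in waves through the moult. Messages of the protein synthesis machinery and of the cytoskeleton, in contrast, are abundant in most cells at most times. Which of these the 128 transcripts are is not given here. The row IDs are assembled loci (MSTRG), most with an annotated ID (HMEL), and 0 of the IDs matched the RefSeq gene table of assembly ASM5695672v1, which lists 15508 genes. Transcripts are therefore reported by ID, with no name, role or sequence, and the tissue was not checked against marker genes. In bulk tissue, fewer cells of a type and less RNA per cell cannot be told apart.

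Total counts per library were 20151439 to 45570497, and 116 of the 128 transcripts had a count in every library. At these depths a count of 0 allows up to 3 counts, or 0.0658 to 0.149 CPM, which covers counting error only. Individual 4, a cythera male at 50%, stood apart in these transcripts and is described last. In 35 of the 128 its level was over 4-fold from the mean of its group, against 0 to 14 transcripts in each of the other 15 individuals. The study left out 1 rosina individual as wrongly labelled, and its number is not given in the sources used here. Individual 13, labelled rosina at 70%, was the individual whose label was doubted here. Among the 128 transcripts, 1 was over 4-fold from its group mean in individual 13. All individuals were kept under their labels, and results that rest on 1 of them are given with and without it.

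The 128 transcripts took up more of the library at 70% than at 50%. Per individual, they held 59.5% ± 1.76 of all counts at 70% and 50.9% ± 3.12 at 50% (SD, n = 8 each). The lowest individual at 70% had 57.0%, and the 8 individuals at 50% had 46.4% to 55.1%, so the stages did not overlap. By group, the share was 60.2% ± 1.03 in cythera and 58.8% ± 2.21 in rosina at 70%, and 51.6% ± 4.09 in cythera and 50.3% ± 2.20 in rosina at 50% (SD, n = 4 each). The subspecies overlapped at both stages.

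At 50%, the share was 50.6% to 55.1% in the 4 females and 46.4% to 50.3% in the 4 males, with no overlap between the sexes. Individual 4 was the lowest of these males, and the next lowest, individual 7, had 47.4%. In cythera at 70%, the share was 58.8% and 60.9% in the females and 61.1% and 59.9% in the males, which overlapped. Within individuals, the share in the forewing and posterior hindwing was above that in the anterior hindwing in 7 of 8 individuals at 70%, by 2.85 ± 1.91 percentage points, and in 6 of 8 at 50%, by 1.08 ± 2.17 points (SD, n = 8 each).

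**Figure D1:**
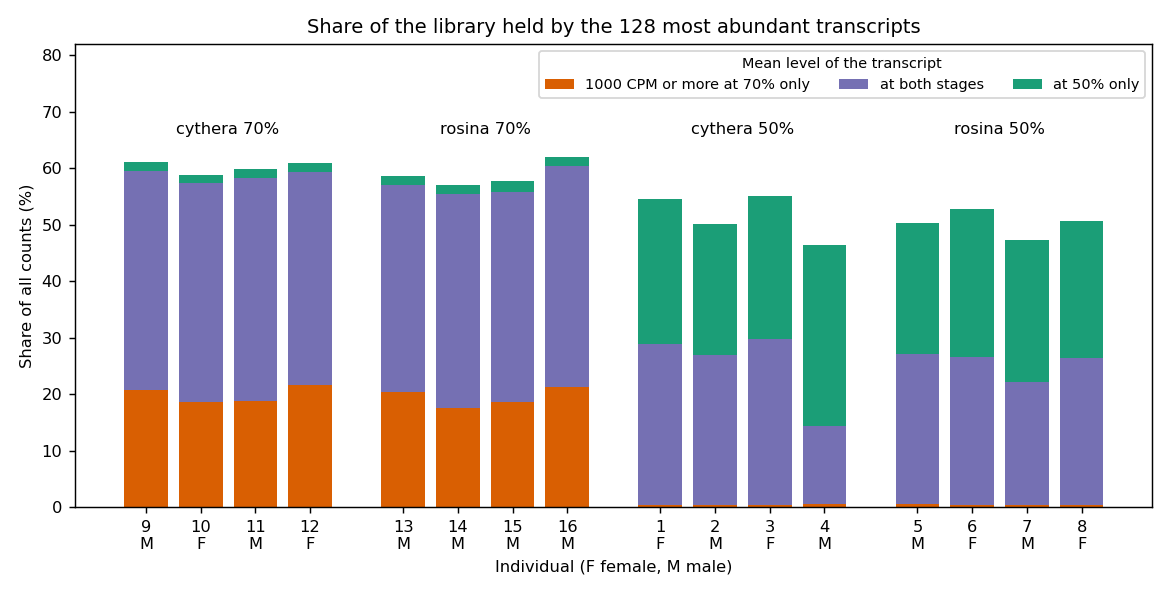
Share of all counts (%) held by the 128 transcripts in each of the 16 individuals, split by the stage at which a transcript averaged 1000 CPM or more; F is female and M male. All 8 bars at 70% (57.0% or more) are taller than all 8 bars at 50% (46.4% to 55.1%), and the 49 transcripts abundant at both stages hold the largest part at 70%.

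The library at 70% was more concentrated in a few transcripts. The 10 most abundant rows of each library, which can differ between libraries, held a mean of 37.2% of its counts at 70%, 31.7% to 41.8% over 16 libraries. At 50% they held 23.0%, 16.2% to 28.3%. The largest single row of a library held between 6.18% and 8.35% of the counts at 70% and between 3.34% and 5.94% at 50%. Ranked by the mean level at each stage, only MSTRG.18975 and MSTRG.256 were among the 10 most abundant rows at both stages.

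The set of abundant transcripts differed between stages. Of the 128, 49 averaged 1000 CPM or more at both stages, 27 at 70% only and 52 at 50% only. The 49 held 38.2% of the counts at 70% and 24.7% at 50%. The 27 held 19.7% at 70% and 0.490% at 50%, and the 52 held 1.57% at 70% and 25.7% at 50%. Counted over all rows, 86 reached 1000 CPM at 70% and 148 at 50%. In every one of the 32 libraries, 21 transcripts exceeded 1000 CPM. At the other end, 11 averaged under 10 CPM at 50% and 10 averaged under 10 CPM at 70%.

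All 128 passed the expression filter in each test. Between stages, 114 of the 128 changed (edgeR FDR under 0.05), 41 higher and 73 lower at 70%, which is 89.1%, whereas 38.8% of all 17800 rows tested changed, 19.7% higher and 19.1% lower. The 27 and the 52 transcripts that reached the threshold at 1 stage only had to differ between stages, so their calls (27 higher and 51 lower) are read as a description. Of the 49 that reached it at both stages, 14 rose, 22 fell and 13 did not pass. Levels of the 8 individuals at 70% and the 8 at 50% did not overlap for 84 of the 128 transcripts, 32 above and 52 below, against 15.8% of all rows tested. That count was made over all 128, with those that reached the threshold at 1 stage only, so it is a description as well. The share of rows changed went with level throughout the table. It was 73.6% of the 977 rows of 100 to under 1000 CPM, 59.7% of rows of 10 to under 100 CPM and 27.3% of rows under 10 CPM.

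**Figure D2:**
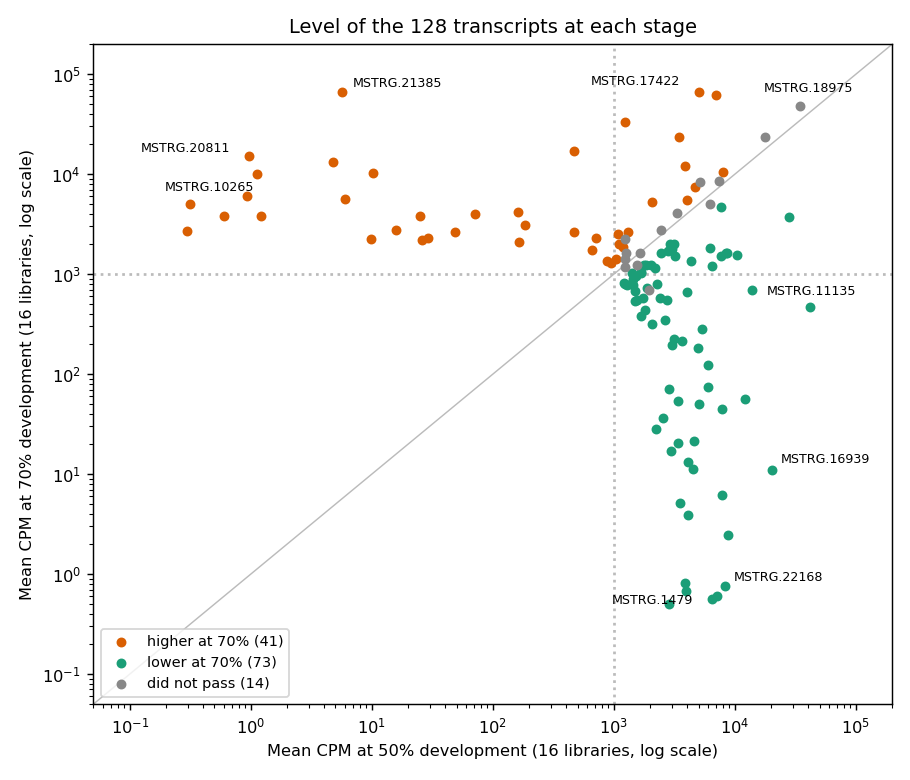
Mean CPM of each of the 128 transcripts at 70% (vertical axis) against 50% (horizontal axis), over 16 libraries each, on log scales; colours give the edgeR call, dotted lines mark 1000 CPM and the solid line marks equal levels. The 41 higher transcripts reach down to under 1 CPM at 50% and the 73 lower ones to under 1 CPM at 70%, while 14 that did not pass lie near the line.

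Changes of many of these transcripts were large. The median absolute log2 fold change was 2.47 over the 128, 0.81 over rows of 100 to under 1000 CPM and 0.65 over all rows tested. Transcripts that reached the threshold at 1 stage only had to differ between stages, so the rule set part of this size. In the 49 that reached it at both stages, the log2 fold change ran between -2.81 and 4.82, with a median of 0.04. Among the 41 higher ones it ran between 0.49 and 14.02 with a median of 4.74, and 10 exceeded 10. Among the 73 lower ones it ran between -13.41 and -0.38 with a median of -2.56, and 9 were beyond -10. The signed median was -0.62 over the 128 and 0.03 over all rows.

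Both subspecies showed the stage change. Within cythera, 33 transcripts rose and 63 fell, 96 in all, against 27% of all rows (13.3% higher and 13.8% lower). Within rosina, 33 rose and 66 fell, 99 in all, against 26.8% of all rows (13.8% higher and 13% lower). The 2 comparisons have no sample in common, but they share an estimate of the spread. The 128 were also chosen on the levels of both subspecies, so the agreement is read as a description. The fold change had the same sign in 126 of the 128, and 89 were called the same way in both, 7 in cythera only and 10 in rosina only. The agreement over all rows was not counted. The difference between subspecies in the stage change was tested itself and passed for 0 of the 128 in edgeR, against 0.00562% of all rows. An unadjusted p under 0.05 was found for 8 (6.25%), against 7.68% of all rows, and DESeq2 called 3 of the 128 and 199 of all rows.

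A few transcripts were at the top of the library at both stages. MSTRG.18975, a locus that joins HMEL008070g1 and HMEL011805g1 and had the highest mean of all rows, had a lowest, median and highest level of 43284, 47535 and 55583 CPM at 70%, against 19661, 36080 and 49138 CPM at 50%. The stages overlapped, and the log2 fold change of 0.53 (SE 0.25) did not pass (edgeR FDR = 0.116). MSTRG.256, which carries no annotated ID, had 21578, 23378 and 24515 CPM at 70% and 9919, 18332 and 24091 CPM at 50%. It also overlapped and did not pass, at 0.47 (SE 0.21, edgeR FDR = 0.0997). In both, the lowest value at 50% was that of individual 4. Both passed with DESeq2 (FDR = 0.00391 for MSTRG.18975 and 0.00471 for MSTRG.256) and when only rows with at least 10 counts in every library were tested in edgeR (FDR = 0.0398 for MSTRG.18975 and 0.0386 for MSTRG.256).

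The steadiest of the 128 was MSTRG.8177 (HMEL013893g1), with a standard deviation within groups of 0.115 on the log2 scale. It had 1072, 1253 and 1318 CPM at 70%, against 1660, 1812 and 2110 CPM at 50%. The stages did not overlap, and this small fall of 0.51 on the log2 scale (SE 0.10) passed the test (edgeR FDR = 0.000773). The transcript with the most spread was MSTRG.16981 (HMEL032535g1), with a standard deviation of 3.39. It ran between 7.82 and 445 CPM at 70% and between 1.75 and 14343 CPM at 50%, and the lowest value at 50% was again that of individual 4. Its log2 fold change was -5.63 (SE 1.24, edgeR FDR = 0.00211), although the stages overlapped.

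Other transcripts led the library at 70% and were abundant at 50% as well. MSTRG.17422 (HMEL000058) had 56959, 66634 and 72097 CPM at 70%, against 69.3, 5862 and 8513 CPM at 50%. MSTRG.18983 (HMEL011803g1) had 46235, 60027 and 74462 CPM at 70%, against 141, 7257 and 12847 CPM at 50%. MSTRG.15063, which joins HMEL020719g2 and HMEL020719g3, had 22028, 33750 and 39350 CPM at 70%, against 44.8, 1035 and 2455 CPM at 50%. In all 3 the stages were far apart, and the lowest value at 50% was that of individual 4. The log2 fold changes were 3.76 (SE 0.66, edgeR FDR = 0.000348), 3.19 (SE 0.57, edgeR FDR = 0.000416) and 4.82 (SE 0.58, edgeR FDR = 1.06e-05), in that order. MSTRG.16937 (HMEL022259g1) had 17534, 21045 and 33690 CPM at 70%, against 3.40, 2870 and 9365 CPM at 50%. It rose by 2.94 on the log2 scale (SE 0.85, edgeR FDR = 0.0125), and in males alone the change was 4.17 and did not pass (edgeR FDR = 0.0765).

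MSTRG.21385 was among the 3 leading rows at 70% and had almost no reads at 50%. It was the largest row in 8 of the 16 libraries at 70%, MSTRG.18983 in 6 and MSTRG.17422 in 2, and its mean of 66010 CPM was close to the 65885 CPM of MSTRG.17422. This locus joins HMEL002273g1, HMEL004134g1 and HMEL004134g2. Its lowest, median and highest levels were 55761, 65152 and 81655 CPM at 70%, against 2.04, 4.56 and 14.3 CPM at 50%. It took 6.60% of the counts at 70%, and the log2 fold change was 13.58 (SE 0.68, edgeR FDR = 1.69e-09). No individual at 50% came near any at 70%, in either subspecies.

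The other transcripts with the largest rises followed the same course from a lower peak. MSTRG.20811 (HMEL014202g1) had 12101, 14395 and 19966 CPM at 70%, against 0.397, 0.592 and 2.64 CPM at 50%, and the log2 fold change was 14.02 (SE 0.67, edgeR FDR = 1.14e-09). MSTRG.10265 (HMEL013644g1) had 3965, 4911 and 6264 CPM at 70%, against 0.0504, 0.192 and 1.10 CPM at 50%, and the log2 fold change was 13.99 (SE 0.83, edgeR FDR = 7.83e-09). No individual at 50% came near those at 70%, and both transcripts were highest at 50% in individual 6. MSTRG.15067 (HMEL031854g1) had 2044, 10813 and 16615 CPM at 70%, against 0.161, 0.470 and 4.91 CPM at 50%, and the log2 fold change was 13.24 (SE 1.07, edgeR FDR = 1.87e-07). MSTRG.13247 (HMEL031326g1) had 1834, 2743 and 3512 CPM at 70%, against 0, 0.237 and 0.705 CPM at 50%, and the log2 fold change was 13.21 (SE 0.85, edgeR FDR = 1.83e-08). Individual 6 held the highest value at 50% in these 2 as well. Without it the log2 fold change was 15.16 for MSTRG.10265 and 14.24 for MSTRG.15067.

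**Figure D3:**
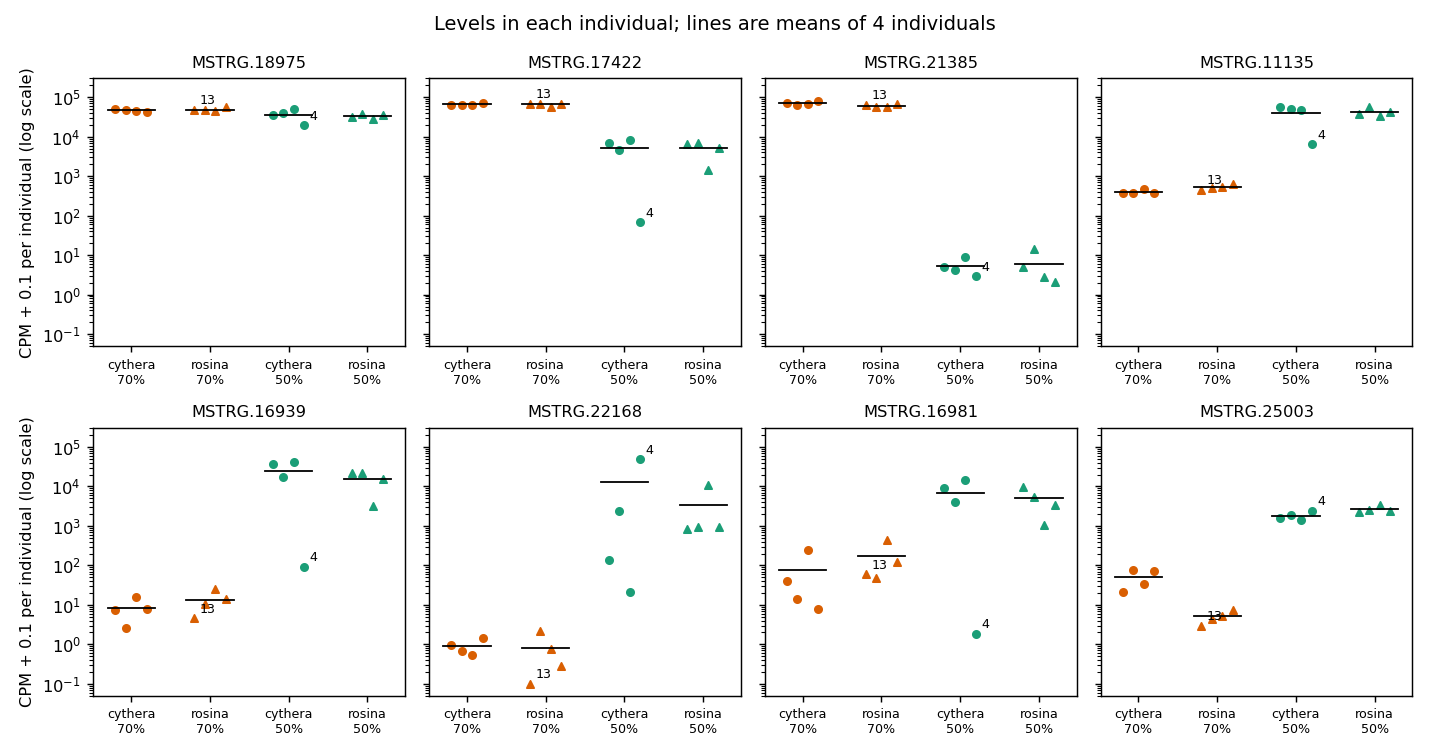
CPM + 0.1 (log scale) of 8 transcripts in each of the 16 individuals, by subspecies and stage; lines are means of 4 individuals, and the numbers 4 and 13 mark those individuals. MSTRG.18975 is between 19661 and 55583 CPM in all individuals, MSTRG.21385 is at 2.04 to 14.3 CPM in all 8 individuals at 50%, and individual 4 lies below the others at 50% in MSTRG.17422, MSTRG.16939 and MSTRG.16981 and above them in MSTRG.22168.

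At 50% the library was led by other transcripts, most of which remained detectable at 70%. MSTRG.11135 (HMEL005816g1), the most abundant row at 50%, had 375, 465 and 623 CPM at 70%, against 6454, 44677 and 57504 CPM at 50%. MSTRG.6623, which joins HMEL004535g1, HMEL009800g1 and HMEL037136g1, had 2880, 3690 and 4774 CPM at 70%, against 16959, 27298 and 36684 CPM at 50%. Neither overlapped between stages, and in both individual 4 was the lowest at 50%. The log2 fold change was -6.42 for MSTRG.11135 (SE 0.44, edgeR FDR = 3.57e-08) and -2.81 for MSTRG.6623 (SE 0.23, edgeR FDR = 2.59e-07). MSTRG.16939 (HMEL032518g1) had 2.49, 9.23 and 25.6 CPM at 70%, against 92.0, 19455 and 42442 CPM at 50%, and the log2 fold change was -10.78 (SE 1.13, edgeR FDR = 2.82e-06). The number of this locus is close to that of MSTRG.16937, which rose.

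The deepest falls ended at levels of at most 2.07 CPM at 70%. MSTRG.18655 (HMEL004395g1) had 0.194, 0.454 and 2.07 CPM at 70%, against 2529, 4077 and 5186 CPM at 50%, and the log2 fold change was -12.43 (SE 0.59, edgeR FDR = 1.14e-09). MSTRG.22323 (HMEL006194g1) had 0, 0.395 and 1.12 CPM at 70%, against 724, 2178 and 7559 CPM at 50%, and the log2 fold change was -12.54 (SE 0.90, edgeR FDR = 5.87e-08). Both were low in every individual at 70%. The remaining 3 varied over orders of magnitude at 50%. MSTRG.1479 (HMEL011658g2) had 0.0628, 0.574 and 1.27 CPM at 70%, against 30.1, 994 and 42095 CPM at 50%. MSTRG.22187 (HMEL010668g2) had 0.0660, 0.347 and 1.53 CPM at 70%, against 34.8, 541 and 41677 CPM at 50%. MSTRG.22168 (HMEL010660g1) had 0, 0.622 and 2.04 CPM at 70%, against 21.3, 947 and 49768 CPM at 50%. All 3 highest values came from individual 4, and all 3 lowest values at 50% from individual 3. The log2 fold changes were -13.41 (SE 1.69, edgeR FDR = 1.62e-05), -13.28 (SE 1.76, edgeR FDR = 2.69e-05) and -13.04 (SE 1.86, edgeR FDR = 5.35e-05), and without individual 4 they were -11.44, -11.20 and -11.02, still past the threshold.

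**Figure D4:**
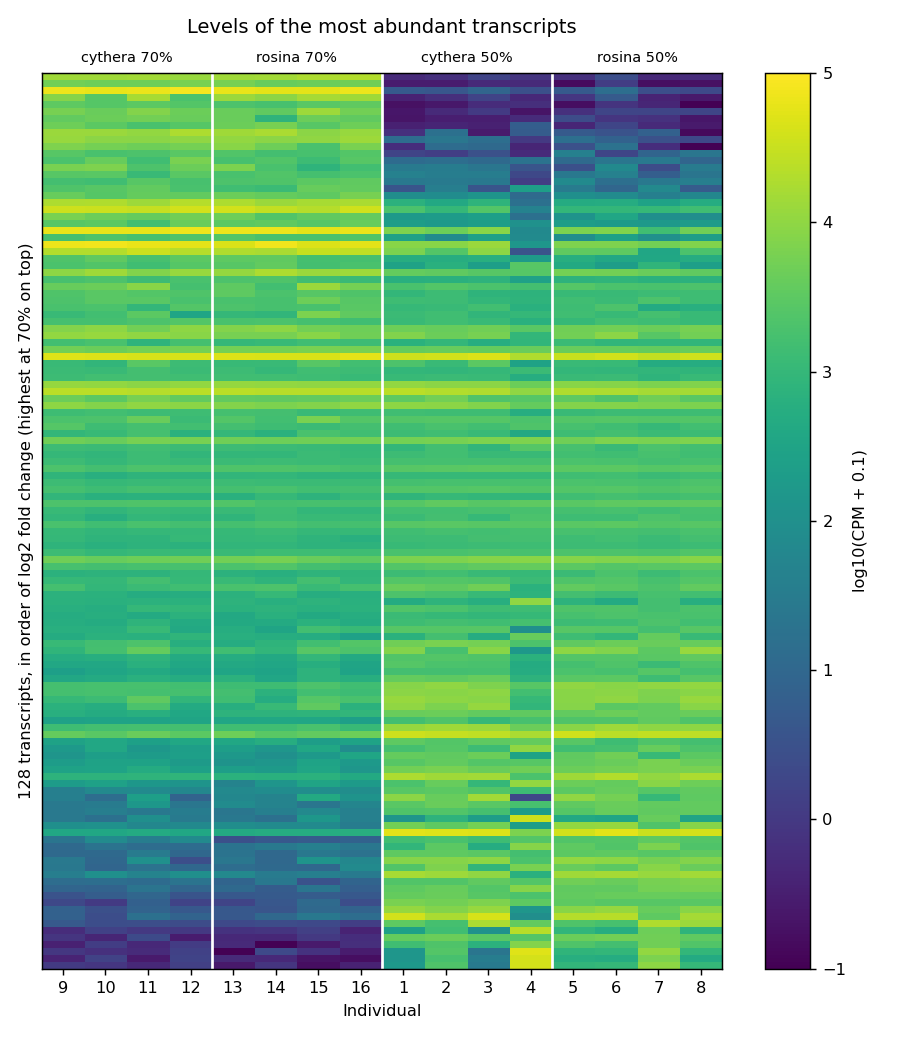
Levels of the 128 transcripts (rows, in order of log2 fold change between stages) in the 16 individuals (columns), as log10(CPM + 0.1) on the colour scale. Rows at the top and at the bottom differ by orders of magnitude between the 70% columns and the 50% columns, and column 4 differs from the other columns of its group in many rows.

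Few of these transcripts differed between subspecies, as was the case for other rows of the table. At 50%, 1 of the 128 passed in edgeR, lower in cythera, against 1.66% of all rows tested, and 8 did not overlap between subspecies, against 11.2% of all rows. At 70%, 1 of the 128 passed, higher in cythera, against 0.0337% of all rows, and 6 did not overlap, against 5.54%. The median absolute log2 fold change of the 128 between subspecies was 0.21 at 50% and 0.22 at 70%, against 0.42 and 0.35 over all rows. The figures over all rows were set by rows under 10 CPM (0.72 and 0.60). In the 977 rows of 100 to under 1000 CPM, the nearest in level, the medians were smaller than in the 128, at 0.17 and 0.16, and 0.819% of these rows passed at 50% and 0 of them at 70%.

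The transcript that passed at 70% was MSTRG.25003 (HMEL007282g1), which is among the 128 through its level at 50%. At 70% it had 21.5, 76.5, 34.0 and 73.4 CPM in the 4 cythera, against 2.87, 4.33, 5.26 and 7.48 CPM in the 4 rosina. The log2 fold change was 3.38 (SE 0.42, edgeR FDR = 0.00919). The lowest of the rosina values was that of individual 13. At 50% it had 1543, 1887, 1377 and 2450 CPM in cythera, against 2292, 2529, 3302 and 2435 CPM in rosina, which overlapped and did not pass (log2 fold change -0.45, SE 0.39, edgeR FDR = 0.604). The estimates of its stage change were -5.10 in cythera (SE 0.46) and -8.93 in rosina (SE 0.55). The test of their difference did not pass in the main fit with all individuals (3.83, SE 0.57, edgeR FDR = 0.0713). It passed in 8 of 28 alternatives. With all individuals, these were DESeq2 (FDR = 9.91e-09), the newer quasi-likelihood fit of edgeR (FDR = 0.0281) and total counts in place of TMM (edgeR FDR = 0.0423). The anterior hindwing alone also passed (edgeR FDR = 0.0253). So did the fits with individuals 4, 9 or 16 left out (edgeR FDR = 0.0416, 0.0281 and 0.0327), and with 4 and 13 both left out (edgeR FDR = 0.0479). Without individual 15 the difference between subspecies at 70% did not pass (edgeR FDR = 0.0642). Sex was not balanced in this comparison. The 2 cythera females at 70% had 76.5 and 73.4 CPM and the 2 cythera males 21.5 and 34.0 CPM, while all rosina at 70% were males. In males alone, with 2 cythera, the log2 fold change was 2.51 and did not pass (edgeR FDR = 0.460). The call was kept with sex as a term in the fit. It was lost in the forewing and posterior hindwing alone (2.83, edgeR FDR = 0.0603). The difference between sexes in this transcript, over the groups with both sexes, did not pass (0.27, SE 0.32, edgeR FDR = 0.948).

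The transcript that passed at 50% was MSTRG.18863 (HMEL011715g1), named here because it passed although its groups overlapped, after its values were seen. It had 1.61, 1.23, 3.00 and 0.443 CPM in cythera at 50%, against 40.4, 1.72, 8.47 and 22.1 CPM in rosina at 50%. The log2 fold change was -3.44 (SE 0.74, edgeR FDR = 0.0401), and the call was lost in 12 of the 16 fits that left 1 individual out, with -2.65 without individual 5. At 70%, where it owes its place among the 128, it had 2691, 1844, 2091 and 2913 CPM in cythera, against 2300, 1607, 1832 and 2446 CPM in rosina, and the groups overlapped in part. The test of the difference in its stage change did not pass (3.70, SE 0.98, edgeR FDR = 0.463). Of 28 alternatives, only DESeq2 passed it (FDR = 0.0141). Both calls between subspecies were thus made at the stage where the transcript was low.

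The lowest transcript inside the threshold, MSTRG.26049 (HMEL011561g1), had the smallest FDR at 50% among those named here that did not pass. It had 1259, 1025, 942 and 1038 CPM in cythera, against 1758, 2107, 1856 and 1941 CPM in rosina, with no overlap. The log2 fold change was -0.76 (SE 0.19) and did not pass (edgeR FDR = 0.0584).

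The sexes were compared in the 12 individuals of the 3 groups with both sexes. There 0 of the 128 transcripts passed in edgeR, against 0.299% of all 20407 rows tested. An unadjusted p under 0.05 was found for 8 (6.25%), against 6.89% of all rows. DESeq2 called 5 of the 128 and 385 of all rows. MSTRG.2510 (HMEL033281g1) had the smallest p. At 50% it had 271, 257, 258 and 220 CPM in the 4 females, against 76.4, 75.3, 90.2 and 105 CPM in the 4 males. In cythera at 70% it had 2275 and 2277 CPM in the females, against 1716 and 1777 CPM in the males. Females were above males within each of these groups, and the log2 fold change of 1.21 (SE 0.23) did not pass (edgeR FDR = 0.0752). It passed with the newer quasi-likelihood fit of edgeR (FDR = 0.0371) and with DESeq2 (FDR = 1.86e-05). The 4 rosina males at 70% had 1898 to 2484 CPM, which covers the female values of cythera.

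MSTRG.15057 (HMEL031856g1) had the second-smallest p and the opposite direction. It had 2355 and 881 CPM in cythera females at 50%, against 7021 and 6108 CPM in cythera males. In rosina at 50% it had 3078 and 4296 CPM in females, against 4139 and 8694 CPM in males, which overlapped. In cythera at 70% it had 8.82 and 10.2 CPM in females, against 25.5 and 18.1 CPM in males. The log2 fold change was -1.28 (SE 0.33) and did not pass (edgeR FDR = 0.294). This transcript passed with DESeq2 (FDR = 0.00450).

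Wing regions were compared within individuals, the forewing and posterior hindwing over the anterior hindwing. At 70%, 7 of the 128 passed in edgeR, 6 higher and 1 lower, against 2.28% of all 17902 rows tested (1.28% higher and 1.01% lower). The ratio had the same sign in all 8 individuals for 18 transcripts, 16 above and 2 below, against 3.58% of all rows. At 50%, 3 passed, 1 higher and 2 lower, against 1.09% of all rows (0.458% higher and 0.637% lower), and 12 had the same sign in all 8 individuals, against 3.13%. Of the 977 rows of 100 to under 1000 CPM, the nearest in level, 8.29% passed at 70% and 2.97% at 50%. Those shares were above the 5.47% and 2.34% of the 128 that passed. The scaling bore on the direction at 70%. With total counts in place of TMM factors the median of all rows was -0.16 in place of -0.01, and 5 of the 128 were called higher and 6 lower.

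**Figure D5:**
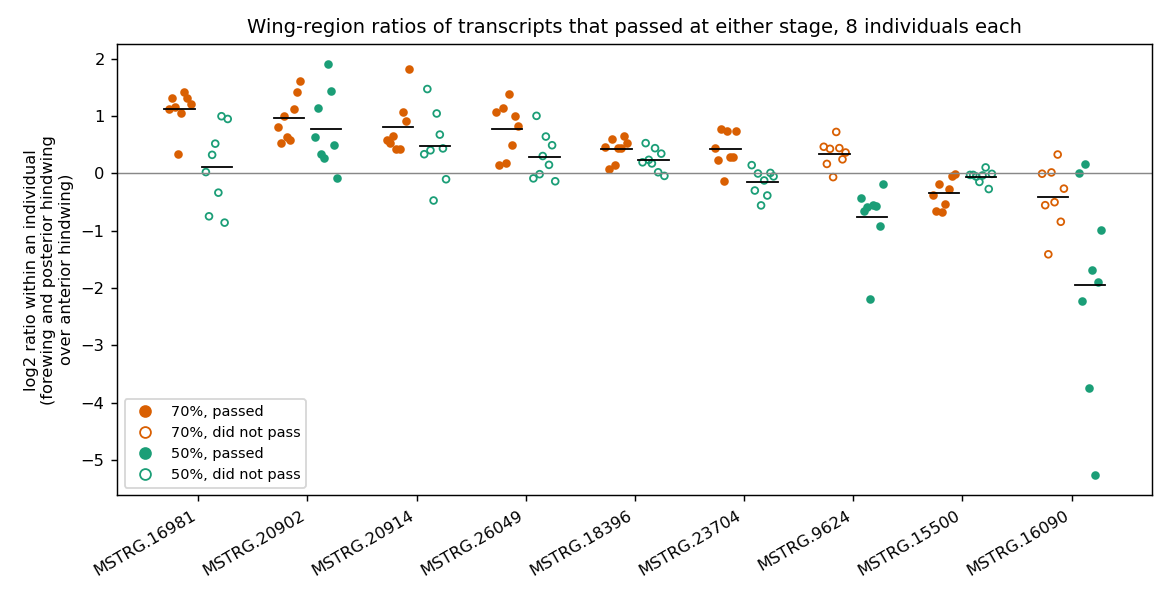
Log2 ratio of the forewing and posterior hindwing over the anterior hindwing within each of 8 individuals at 70% and 8 at 50%, for the 9 transcripts that passed at either stage; lines are means, filled points passed and open points did not. MSTRG.16981, MSTRG.20902, MSTRG.20914, MSTRG.26049 and MSTRG.18396 lie above 0 in all 8 individuals at 70%, and MSTRG.9624 lies below 0 in all 8 at 50%.

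Higher in the forewing and posterior hindwing at 70% were, among others, 3 transcripts of different levels. MSTRG.16981 had a lowest, median and highest level of 8.81, 74.5 and 593 CPM in the forewing and posterior hindwing, against 6.90, 35.8 and 282 CPM in the anterior hindwing. The ratio was above 0 in all 8 individuals, between 0.34 and 1.42, and the log2 fold change was 1.13 (SE 0.19, edgeR FDR = 0.00373). At 50%, where this transcript was abundant, the ratio lay between -0.86 and 1.00 and did not pass (0.09, SE 0.19, edgeR FDR = 0.972). MSTRG.20902, which joins HMEL006739g1 and HMEL014954g1, had 3145, 4817 and 8552 CPM in the forewing and posterior hindwing at 70%, against 1925, 2768 and 3887 CPM in the anterior hindwing. Its log2 fold change was 0.97 at 70% (SE 0.17, edgeR FDR = 0.00563), above 0 in 8 of 8 individuals, and 0.77 at 50% (SE 0.18, edgeR FDR = 0.0453), above 0 in 7 of 8. The call at 50%, named after its values were seen, was lost in 13 of the 16 fits that left 1 individual out. MSTRG.26049 had 554, 630 and 779 CPM in the forewing and posterior hindwing at 70%, against 263, 403 and 685 CPM in the anterior hindwing, and the log2 fold change was 0.78 (SE 0.14, edgeR FDR = 0.00708), above 0 in all 8 individuals.

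The other 3 that were higher at 70%, named after their values were seen, were MSTRG.20914 at 0.80 (SE 0.18, edgeR FDR = 0.0205), MSTRG.18396 at 0.43 (SE 0.08, edgeR FDR = 0.00787) and MSTRG.23704 at 0.42 (SE 0.10, edgeR FDR = 0.0330). MSTRG.20914 and MSTRG.18396 were above 0 in all 8 individuals, and MSTRG.23704 in 7. The number of MSTRG.20914 is close to that of MSTRG.20902, and their annotated IDs, HMEL006740g3 and HMEL006739g1, follow each other. The 1 lower transcript at 70% was MSTRG.15500 (HMEL008086g1). It had 281, 547 and 774 CPM in the forewing and posterior hindwing, against 446, 802 and 988 CPM in the anterior hindwing, and the log2 fold change was -0.35 (SE 0.08, edgeR FDR = 0.0203), below 0 in all 8 individuals. The call was lost with individuals 10, 12 or 13 left out (edgeR FDR = 0.0607, 0.0549 and 0.0751).

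At 50% the 2 lower transcripts were both abundant only at 70%. MSTRG.9624 (HMEL012978g1) had 0.356, 20.2 and 58.1 CPM in the forewing and posterior hindwing at 50%, against 1.87, 32.7 and 93.8 CPM in the anterior hindwing. The ratio was below 0 in all 8 individuals, between -2.19 and -0.18, and the log2 fold change was -0.66 (SE 0.13, edgeR FDR = 0.0178). At 70% it had 1563, 2476 and 3476 CPM in the forewing and posterior hindwing, against 1354, 1881 and 3422 CPM in the anterior hindwing. There the ratio was above 0 in 7 of 8 individuals, and 0.35 (SE 0.12) did not pass (edgeR FDR = 0.183). In edgeR, MSTRG.9624 was the 1 transcript of the 128 whose wing-region ratio passed the test of a change with stage (2 did with its newer quasi-likelihood fit and 10 with DESeq2), and its signed ratio was higher at 70% by 1.01 (SE 0.18, edgeR FDR = 0.0153), against 0.508% of all rows tested. Without individual 7 the difference at 50% did not pass (edgeR FDR = 0.0664). MSTRG.16090, which joins HMEL020501g1, HMEL032224g1 and HMEL032225g1 and is named after its values were seen, had 0, 0.628 and 5.06 CPM in the forewing and posterior hindwing at 50%, against 0.0658, 7.23 and 27.3 CPM in the anterior hindwing. The log2 fold change was -2.34 (SE 0.41, edgeR FDR = 0.00904), below 0 in 6 of 8 individuals, and it did not pass without individual 2 (edgeR FDR = 0.0531) or with DESeq2 (FDR = 0.0991).

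The spread between individuals of a group was larger at 50% than at 70% with individual 4 included, but not without it. The median standard deviation within groups was 0.38 at 70% and 0.57 at 50% on the log2 scale, against 0.60 and 0.61 over all rows tested. Without individual 4 it was 0.32 at 50%, against 0.52 over all rows. The standard deviation was larger at 50% for 82 of the 128 transcripts, and for 64 without individual 4.

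Of the 35 transcripts in which individual 4 was over 4-fold from its group mean, 25 were below and 10 above. It had 3.40 CPM of MSTRG.16937, against 6578, 2514 and 9365 CPM in the other cythera at 50%. It had 92.0 CPM of MSTRG.16939, against 37918, 16956 and 42442 CPM, and 69.3 CPM of MSTRG.17422, against 7075, 4617 and 8513 CPM. In contrast it had 49768 CPM of MSTRG.22168, its most abundant row, against 141, 2458 and 21.3 CPM. Individual 4 was thus low both in transcripts that rose with stage and in transcripts that fell. The 25 below held 11 of the 33 transcripts that rose with stage in rosina, which shares no animal with it. They held 10 of the 66 that fell in rosina, and the remaining 4 did not pass there. Of the 10 above, 3 rose, 5 fell and 2 did not pass.

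Individual 7, a rosina male at 50%, deviated from its group mean in the same direction as individual 4 in 34 of these 35 transcripts. Group means include the animal itself, so a shift of individual 7 moves the deviations of the other rosina at 50% the opposite way. Their counts of 4 to 11 are therefore not a separate comparison. The rosina at 70%, which share no group mean with individual 7, deviated in the direction of individual 4 in 11 to 27, the most in individual 14. These 35 were chosen on individual 4, and the shares are a description. Individual 7 had 9424 CPM of MSTRG.1479, against 889, 1007 and 981 CPM in the other rosina at 50%, and 1430 CPM of MSTRG.17422, against 6648, 7119 and 5076 CPM. Both animals were male, and their part in the lower share of the library in males at 50% was not tested. Without individual 4, MSTRG.1479, MSTRG.15136, MSTRG.22197, MSTRG.7271, MSTRG.15824 and MSTRG.22187 would average under 1000 CPM, and MSTRG.18476 would reach it at 1007 CPM.

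The 128 transcripts differed from the rest of the table in the kind of ID. Of them, 102 (79.7%) were assembled loci with 1 annotated ID, against 40.1% of all rows. Another 23 (18.0%) joined 2 or more annotated IDs, against 4.48% of all rows, and only 3 (2.34%) had no annotated ID, against 40.6%. Rows of 100 to under 1000 CPM were alike, with 73.3%, 24.3% and 2.46% in these classes. In the 23 joined loci 1 count covers several annotated IDs, so that their level may not be that of 1 gene. Whether the joined IDs are separate genes or parts of 1 gene was not checked. Of the joined loci, 13 rose and 5 fell with stage, and of the loci with 1 ID, 27 rose and 67 fell. Calls were not counted over all rows of each class, so these counts describe the 128 only.

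Some of the 128 have MSTRG numbers close together, and in 4 of the 5 runs found members changed in opposite directions. Over the 128, 41 rose and 73 fell. How often members taken without regard to their numbers would be as mixed was not counted, so the runs are a description. Runs of 3 or more members with gaps of at most 20 numbers were looked for after the values were seen, and 5 runs with 19 transcripts were found. Positions were not used here, so how close they lie in the genome was not checked. The run from MSTRG.15036 to MSTRG.15067 held 6 transcripts, 4 that rose and 2 that fell, and took 4.99% of the counts at 70% and 0.890% at 50%. Within it, MSTRG.15067 averaged 10124 CPM at 70% and 1.11 CPM at 50%, whereas MSTRG.15057 averaged 21.3 CPM at 70% and 4576 CPM at 50%. In the run from MSTRG.15091 to MSTRG.15114, MSTRG.15114 averaged 10309 CPM at 70% and 10.1 CPM at 50%, whereas MSTRG.15091 averaged 6.12 CPM at 70% and 7885 CPM at 50%.

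The run of MSTRG.18975, MSTRG.18976 and MSTRG.18983 took the most reads, 10.9% of the counts at 70% and 5.03% at 50%. MSTRG.18983 rose and MSTRG.18975 did not pass, but MSTRG.18976 averaged 2.47 CPM at 70% and 8753 CPM at 50%, and the log2 fold change was -11.54 (SE 0.82, edgeR FDR = 5.04e-08). In the run from MSTRG.18859 to MSTRG.18867, 1 rose and 2 fell. The run of MSTRG.22168, MSTRG.22187 and MSTRG.22197 was the only one whose members all went one way, and all 3 fell. Whether reads of similar neighbouring genes were split between them cannot be told apart from a difference in their expression, since the treatment of reads that match several loci is not given in the sources used here.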

How the data were processed

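RNA-seq libraries of 2 wing samples from each of 16 individuals were measured. Per the labels and the study's methods, the authors trimmed the reads with Trimmomatic 0.38 and mapped these with HISAT2 2.1.0 on the genome of the species, and the submitters' processing notes also name SAMtools 1.9, StringTie 1.3.5 and edgeR. The deposited table holds raw counts per assembled locus, with 30720 rows and 32 columns, all of them used. The counting step, its strand setting and the genome build are not given in the sources used here.

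CPM was computed from column totals of 20151439 to 45570497. The members and lists were chosen with earlier results of these data known, and individual 13 was treated as doubtful on those results. Counts of both libraries of an individual were summed for stage, subspecies and sex (12 individuals in groups with both sexes). Tests used edgeR 4.0.16 (quasi-likelihood F-test, TMM, rows kept by filterByExpr with a minimum count of 10, Benjamini-Hochberg adjustment over all rows tested, called under 0.05), with R 4.3.3. Standard errors were derived from the F statistic. Wing regions were tested on 32 libraries with the individual as a block. Both libraries of a number come from the same animal, and their deviations from the group means correlated at 0.636 to 0.846 (16 pairs). Individuals are separate animals, not said to come from separate broods.

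Named were the 10 transcripts with the highest mean, the 5 largest changes with stage in each direction whose stages did not overlap, in other comparisons up to 3 per direction with the smallest p, or the 2 smallest p where none passed, the 2 on each side of the threshold, and the largest and smallest spread. Alternatives were DESeq2 1.42.0, other scalings and filters, other member rules, subsets of libraries, the fit without the block, and each individual left out. The 2 individuals 4 and 13 were left out together as an alternative chosen after seeing the data. Scripts were tested on simulated data. Figures used matplotlib 3.10.9.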

Additional observations from a re-analysis of the deposited data

Results flagged for a closer look

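Within groups of 4 individuals, the value farthest from the others was compared with the range of the group, by Dixon's criterion at 95%. Of 124 such groups, for named transcripts and for the share of the library, 15 had such a value, and 4 of the 15 were values of individual 4. A rate of 1 value per 20 groups would give 6.2. That rate is not what chance gives here, because transcripts were named on these same levels and CPM was not put on a log scale.

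In cythera at 50%, individual 4 had 42095 CPM of MSTRG.1479 (30.1 to 2199 CPM in the others), 41677 CPM of MSTRG.22187 (34.8 to 1837 CPM), 49768 CPM of MSTRG.22168 (21.3 to 2458 CPM) and 1.13 CPM of MSTRG.9624 (25.2 to 28.8 CPM). In rosina at 50%, individual 7 was apart in 3 of the same transcripts, with 9424 CPM of MSTRG.1479 (889 to 1007 CPM), 6579 CPM of MSTRG.22187 (478 to 567 CPM) and 10863 CPM of MSTRG.22168 (853 to 948 CPM).

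Individual 6, a rosina female at 50%, was high in transcripts otherwise near 0 at that stage, with 2.64 CPM of MSTRG.20811 (0.397 to 0.587 CPM), 1.10 CPM of MSTRG.10265 (0.0504 to 0.0881 CPM) and 4.91 CPM of MSTRG.15067 (0.161 to 0.772 CPM). In cythera at 70%, individual 11 had 475 CPM of MSTRG.11135 (375 to 378 CPM), 33690 CPM of MSTRG.16937 (20048 to 21802 CPM) and 244 CPM of MSTRG.16981 (7.82 to 39.8 CPM). In rosina at 70%, individual 15 had 56959 CPM of MSTRG.17422 (68394 to 69397 CPM) and individual 16 had 74.6 CPM of MSTRG.15057 (9.94 to 14.1 CPM).

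The signed wing-region log2 ratio of MSTRG.9624, 0.35 at 70% and -0.66 at 50%, was higher at 70% by 1.01 (SE 0.18, edgeR FDR = 0.0153), in a test of the difference itself.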

How the results depend on the processing

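Between stages, 106 to 113 transcripts were called under the alternatives other than males only, which called 80, against 114. None of the 114 was called in the other direction, and 79 of them kept their call in every alternative in which they were tested. The other counts are small and move with the tool. Membership by the median over libraries gave 81 transcripts, a threshold of 500 CPM gave 267 and of 2000 CPM gave 62, and leaving out 1 individual gave 123 to 133. DESeq2 called 5 between subspecies at 50%, 2 at 70%, 3 for subspecies by stage, 10 between wing regions at 50%, 25 at 70%, 10 for wing region by stage and 5 between sexes, and over all rows 1700, 610, 199, 726, 1066, 522 and 385 in that order, against 296, 6, 1, 196, 409, 91 and 61 in edgeR. With total counts in place of TMM, 3 were called between subspecies at 50%, 1 for subspecies by stage and 11 between wing regions at 70%. The newer quasi-likelihood fit called 3 between subspecies at 50%, 1 for subspecies by stage, 2 for wing region by stage and 1 between sexes. With at least 10 counts in every library, 11 were called between wing regions at 70% and 4 for wing region by stage.

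No filter, the forewing and posterior hindwing alone, sex as a term, males only, and individuals 4 and 13 left out each gave 0 between subspecies at 50%. The forewing and posterior hindwing alone and males only gave 0 at 70%. The anterior hindwing alone, and individuals 4 and 13 left out, each gave 1 for subspecies by stage, and leaving out individuals 4 and 13 gave 5 between wing regions at 50%. Without the replicate block, 0 passed between wing regions at 50%, at 70% and for wing region by stage, and cythera alone with the replicate block gave 0 in all of these. Leaving out 1 individual gave 110 to 113 between stages, 0 to 2 between subspecies at 50%, 0 to 1 at 70%, 0 to 1 for subspecies by stage, 1 (individual 2) to 5 (individual 4) between wing regions at 50%, 5 (individual 9) to 12 (individuals 4 and 14) at 70%, 1 to 2 for wing region by stage and 0 between sexes. The causes were not tested. Transcripts near 0 at one stage have fold changes that depend on the prior count.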
